A study of Homo sapiens with 96 samples.

Results

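Fluoxetine was compared at 2 concentrations, named IC5 and IC20/100 in the labels, in neuron and astrocyte co-cultures sampled on day 10. The comparison takes the 8 libraries titled fluoxetine IC5 and the 8 titled fluoxetine IC20/100, which are 16 of the 96 libraries of the series. IC5 is read here as the concentration that gives 5% inhibition and IC20/100 as the 20% concentration diluted 100-fold, while the sources used here give neither molar concentrations nor the measure of inhibition or the exposure time. Both groups received fluoxetine hydrochloride in dimethyl sulfoxide (DMSO), present at 0.25% (v/v) in the medium, so that they share the vehicle and differ by concentration.

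The co-cultures came from neural progenitor cells derived from the established embryonic stem cell line H9, which is human. They were differentiated in neurobasal medium with N2 and B-27 supplements, glial cell line-derived and brain-derived neurotrophic factors, dibutyryl cyclic AMP, ascorbic acid and laminin. A set of 8 libraries of unexposed day 10 co-cultures served to place both concentrations against an unexposed level. The sources used here do not say whether DMSO was in those controls, so the compound and its vehicle cannot be told apart in a comparison with them. Per the labels, the 8 libraries of a group are technical replicates from 1 experiment. The p-values therefore measure differences only against the spread between technical replicates, which the main fit pools over all day 10 groups.

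Fluoxetine blocks the serotonin transporter and is used as an antidepressant. It is also a cationic amphiphilic drug, a class of weak bases that accumulate in acidic compartments such as lysosomes, where such drugs can hold back the export of cholesterol. Cells read the sterol content of the endoplasmic reticulum through the SREBP transcription factors, which are released when sterol falls and switch on the genes of cholesterol synthesis and uptake. Shortage of amino acids and other stresses act through the factor ATF4, which switches on amino acid transporters and the synthesis of serine, asparagine and one-carbon units.

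Recovered sequencing depth was 11.28 to 25.42 M reads (M, mega) in the IC5 libraries, 14.16 to 23.2 M in the IC20/100 libraries and 16.94 to 26.89 M in the controls. Values are the authors' normalized counts, which are read counts divided by 1 size factor per library. Tests covered the 20136 genes that reached a value of 10 in 8 or more of the 88 day 10 libraries, with limma on log2(value + 2) and with group and sequencing run as terms. All log2 differences below are IC5 minus IC20/100 on that scale unless another pair is named, with their standard error (SE), and n = 8 libraries in each group. In brackets after a gene stand its log2 difference ± SE and then its limma adjusted p. Libraries of each group were spread over all 6 sequencing runs, so that a difference can also be taken within each run. Neuronal markers were abundant in both groups, with the sum of 7 of them (STMN2, TUBB3, MAP2, SYT1, SNAP25, DCX and ELAVL4) at 79013 to 85771 in IC5, 82185 to 86784 in IC20/100 and 82023 to 88551 in control libraries. The astrocyte marker GFAP was scarce, at 3.33, 8.07 and 27.3 (lowest, median and highest library) in IC5, 6.63, 20.4 and 116 in IC20/100 and 8.37, 23.1 and 48.6 in control libraries. AQP4, ALDH1L1 and S100B were also scarce, at 1.7 to 15.0 on average in IC5 libraries, while SLC1A3 and SLC1A2, which radial glia express too, averaged 1534 ± 217 and 2667 ± 190.2 (SD).

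The 2 concentrations differed in 758 of the 20136 genes at a limma adjusted p under 0.05 (Benjamini-Hochberg), which is 3.76% of the genes tested. Of these, 464 genes (2.3%) were higher and 294 (1.46%) were lower at IC5. A change of at least 1.5-fold was found in 94 of the higher genes (0.467%) and 46 of the lower ones (0.228%), so most called differences were small. The difference had the same sign within all 6 sequencing runs for 591 of the 758 genes, or 2.94% of all genes tested. At an unadjusted p under 0.05 there were 2909 genes (14.4%). In 160 genes (0.795%) every IC5 library lay above every IC20/100 library, and in 64 genes (0.318%) every IC5 library lay below. The count of calls rests in part on 1 library outside the comparison that enters the shared estimate of spread, methyl mercury IC20/100 replicate 8, without which 1175 genes were called. With only the 16 fluoxetine libraries in the fit, 450 genes were called.

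Over the gene lists, the largest numbers of members that rose at IC5 were in cholesterol synthesis (19 of 24), hypoxia and glycolysis (12 of 31), sterol sensing and uptake (9 of 23) and lysosomal hydrolases (7 of 30). Mesenchymal and pericyte markers had the highest median of the lists (0.39), with 6 of 11 higher. Members that fell were most numerous in the ATF4 response (14 of 31) and the cell cycle (10 of 32). The cholesterol synthesis list had 0 members lower and a median log2 difference of 0.34, against a median of -0.01 over all genes tested. The ATF4 and CHOP list had 1 member higher and a median of -0.17. Counts of list members between the 2 concentrations, here and below, stand against 2.3% of all genes tested called higher and 1.46% called lower.

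**Figure D1:**
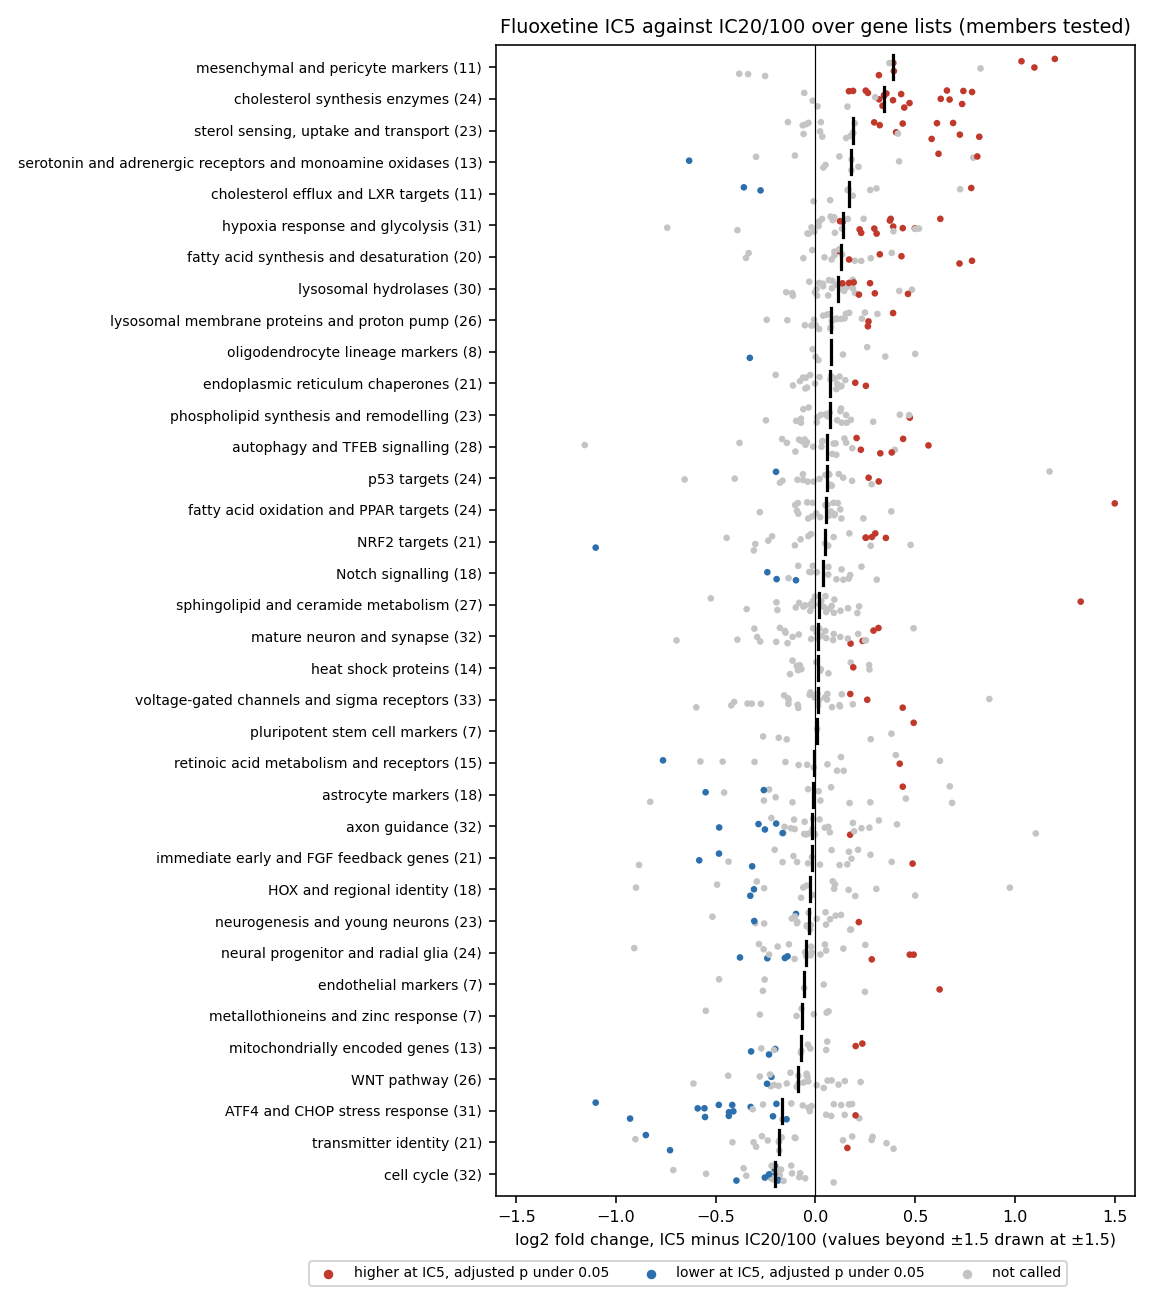
Log2 difference between fluoxetine IC5 and IC20/100 for the tested members of each gene list with more than 1 tested, with the number tested in brackets, each point a gene and each black bar the median of its list. Cholesterol synthesis (19 of 24 members higher) stands near the top and the ATF4 response (14 of 31 lower) and the cell cycle (10 of 32 lower) stand near the bottom, while grey points are genes that were not called.

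Stretches of promoter are shown here for 3 sterol genes and 2 ATF4 genes that differed between the concentrations, since these gene groups moved together. The sequences are from RefSeq (GRCh38.p14), run 5′ to 3′ on the strand of the gene and lie upstream of its RefSeq start, which can fall inside the gene span that GENCODE gives. Capitals in the sterol genes mark the letters TCACNCCAC, a form of the sterol regulatory element bound by SREBP, and CCAAT, the site of the factor NF-Y, each searched on both strands. SREBF2, the gene of the main SREBP of cholesterol synthesis, holds both within chr22:41832942-41833033 (plus strand), while HMGCS1 at chr5:43313478-43313597 (minus strand) and DHCR7 at chr11:71448407-71448517 (minus strand) hold CCAAT alone. ATTGG is CCAAT read on the opposite strand, and DHCR7 has 1 match on each strand. Capitals in the ATF4 genes mark TGATGNAA, a composite site of ATF4 and C/EBP factors, also searched on both strands, in ASNS at chr7:97872439-97872506 (minus strand) and CHAC1 at chr15:40953232-40953299 (plus strand).
SREBF2: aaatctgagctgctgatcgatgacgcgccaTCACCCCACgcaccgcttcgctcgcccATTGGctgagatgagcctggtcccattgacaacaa
HMGCS1: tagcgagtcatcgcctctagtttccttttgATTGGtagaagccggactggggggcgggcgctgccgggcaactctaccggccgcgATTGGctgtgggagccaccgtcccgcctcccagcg
DHCR7: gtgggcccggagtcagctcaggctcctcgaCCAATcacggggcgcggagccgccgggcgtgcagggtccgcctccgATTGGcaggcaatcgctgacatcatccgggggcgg
ASNS: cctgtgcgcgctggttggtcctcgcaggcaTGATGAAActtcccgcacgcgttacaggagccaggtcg
CHAC1: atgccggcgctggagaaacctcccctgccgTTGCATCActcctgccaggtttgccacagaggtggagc

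The CCAAT letters were in the 250 bases upstream of the start in 14 of the 19 cholesterol synthesis genes with a promoter in the table (73.7%), against 33.0% of all 27305 promoters. They were also in 9 of 19 genes of sterol sensing and uptake (47.4%) and in 14 of 25 genes of the ATF4 list (56.0%). TCACNCCAC was in 0 of the 19 cholesterol synthesis genes and in 239 of all promoters (0.875%), and in 1 of 19 genes of sterol sensing and uptake, which was SREBF2. TGATGNAA was in 4 of 25 genes of the ATF4 list (16.0%), against 3.19% of all promoters. CLEAR, the element of the lysosomal regulator TFEB, was searched as TCACGTG and was in 6 of 19 promoters of lysosomal hydrolase genes (31.6%) and in 3.38% of all promoters. A match of letters describes the sequence and says nothing here about binding.

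Cholesterol synthesis was higher at IC5 along most of the pathway. HMGCS1 (ENSG00000112972.15, chr5:43289395-43313512, minus strand in GRCh38), which makes the first committed intermediate of the mevalonate pathway, had a lowest, median and highest normalized count of 31778, 33997 and 35758 in IC5, 20306, 21464 and 23224 in IC20/100 and 22819, 24092 and 25720 in control libraries. The IC5 libraries lay above all others, and the IC20/100 libraries lay mostly below the controls and overlapped their low end. Its log2 difference was 0.67 ± 0.04 (SE, limma adjusted p = 1.74e-21), and it was 0.50 ± 0.04 for IC5 minus control and -0.17 ± 0.04 for IC20/100 minus control.

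MVD, which removes carbon dioxide from mevalonate diphosphate to give isopentenyl diphosphate, had 2093, 2297 and 3265 in IC5, 989.8, 1588 and 1913 in IC20/100 and 927, 1151 and 1517 in control libraries. LSS, which closes the sterol rings, had 5471, 6652 and 8161 in IC5, 3366, 3978 and 5319 in IC20/100 and 2236, 4178 and 5204 in control libraries. DHCR7 (ENSG00000172893.15, chr11:71428193-71452868, minus strand), the last enzyme of one branch of cholesterol synthesis, had 1704, 1993 and 2392 in IC5, 1046, 1135 and 1567 in IC20/100 and 899, 1069.6 and 1317 in control libraries. In none of the 3 did the IC5 and IC20/100 libraries overlap, and the log2 difference was 0.73 ± 0.12 for MVD (limma adjusted p = 9.71e-06), 0.74 ± 0.17 for LSS (0.00352) and 0.78 ± 0.09 for DHCR7 (2.09e-10). MSMO1, a methylsterol demethylase, had 3292 to 4886 in IC5, 2217 to 3221 in IC20/100 and 2537 to 3723 in control libraries, a log2 difference of 0.66 ± 0.06 (limma adjusted p = 2.77e-13). MSMO1 lay below the controls at IC20/100 (-0.27 ± 0.06, limma adjusted p = 0.000766), whereas MVD lay above them (0.36 ± 0.12, 0.0307).

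The remaining called members of the list spanned smaller differences, for example IDI1, which isomerizes isopentenyl diphosphate, at 3876 ± 419.9 (mean ± SD) in IC5 and 2833 ± 319 in IC20/100 (0.39 ± 0.04, limma adjusted p = 2.01e-11), and ACLY, which supplies acetyl-CoA, at 6465 ± 222 in IC5 and 5839 ± 433 in IC20/100 (0.17 ± 0.04, 0.00656). The 5 members that were not called were LBR, PMVK, GGPS1, TM7SF2 and SC5D, with differences between -0.06 ± 0.07 and 0.30 ± 0.12. Of the 24 members, 12 had groups that did not overlap, all with IC5 higher, against 0.795% of all genes tested. Against the controls, which both comparisons share, 20 members were higher and 0 lower at IC5, where 5.47% and 5.94% of all genes were. At IC20/100, 2 members were higher and 5 lower, against 6.88% and 7.54% of all genes.

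Of 23 tested genes of sterol sensing, uptake and transport, 9 were higher at IC5 and 0 lower (median 0.19). INSIG1 (ENSG00000186480.13, chr7:155297776-155310235, plus strand), the protein that holds SREBP in the endoplasmic reticulum when sterol is plentiful and is itself an SREBP target, had 1927, 2136 and 2348 in IC5, 1205, 1329 and 1431 in IC20/100 and 1208, 1338 and 1482 in control libraries. No IC5 library reached down to either other group, and IC20/100 and control libraries covered nearly the same range. INSIG1 differed by 0.69 ± 0.05 (limma adjusted p = 8.49e-18). STARD4, a carrier of cholesterol between membranes, had 1697 to 2118 in IC5 and 963 to 1278 in IC20/100 libraries (0.72 ± 0.09, limma adjusted p = 9.45e-10). NPC2, which hands cholesterol to the membrane protein NPC1 inside the lysosome, had 949 to 1049.7 in IC5, 617 to 736 in IC20/100 and 638 to 759 in control libraries (0.58 ± 0.09, 1.54e-06). NPC1 itself was not called, at 950.0 ± 56.0 (mean ± SD) in IC5 and 842 ± 150.0 in IC20/100 libraries (0.20 ± 0.08, limma adjusted p = 0.226).

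SREBF2 had 13239 to 14267 in IC5, 9839 to 11916 in IC20/100 and 11684 to 13907 in control libraries (0.40 ± 0.06, limma adjusted p = 9.94e-08). For SREBF2, IC5 minus control was 0.11 ± 0.06 and not called, and IC20/100 minus control was -0.29 ± 0.06 (limma adjusted p = 4.68e-05). SREBF1, the SREBP gene better known for fatty acid synthesis, differed by 0.32 ± 0.09 (limma adjusted p = 0.0185), a call lost without IC20/100 replicate 4 (0.067) or replicate 5 (0.0711), with no run term (0.0645) and in the 16 libraries alone (0.0784). TMEM97, the sigma-2 receptor and a partner of NPC1, had 2005 to 2812 in IC5 and 1465 to 1957 in IC20/100 libraries (0.44 ± 0.06, 7.58e-08).

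**Figure D2:**
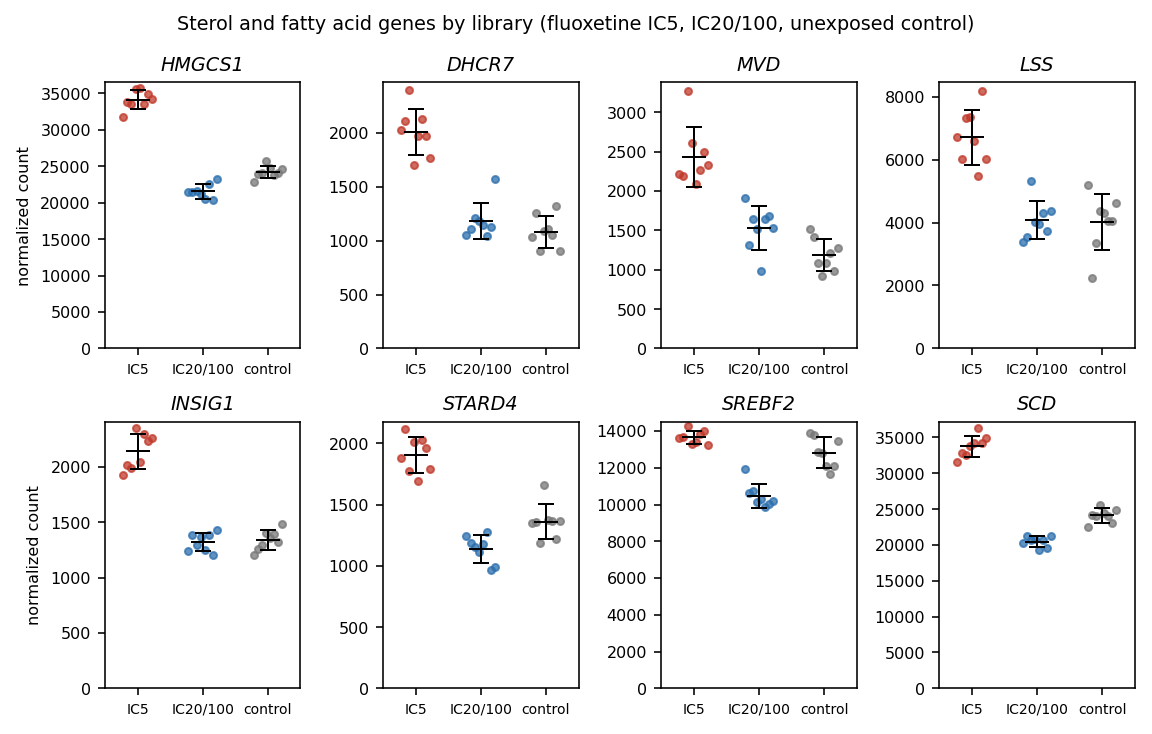
Normalized count of 8 sterol and fatty acid genes in each library of fluoxetine IC5 (red), fluoxetine IC20/100 (blue) and unexposed control (grey), with the mean and SD of 8 libraries in black and axes starting at 0. The IC5 libraries lie above the IC20/100 libraries without overlap in all 8 panels, and SREBF2 differs from the rest in that its IC5 libraries (13239 to 14267) overlap the controls.

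Genes that run against sterol synthesis gave fewer calls. ABCA1, the transporter that loads cholesterol onto lipoprotein, had 1586 to 1808 in IC5, 1850.4 to 2168 in IC20/100 and 1775 to 2314 in control libraries. It was lower at IC5 with no overlap between the concentrations (-0.28 ± 0.07, limma adjusted p = 0.0104). The related exporter ABCG1 was lower too, at 111 to 207 in IC5 and 173 to 228 in IC20/100 libraries (-0.36 ± 0.08, 0.00262). Its call was lost in the 16 libraries alone (limma adjusted p = 0.0987). CYP27A1, which makes 27-hydroxycholesterol, was higher at 41.8 to 64.4 in IC5 against 17.2 to 50.1 in IC20/100 libraries (0.78 ± 0.18, limma adjusted p = 0.00445). These were the 3 called among 11 tested genes of sterol efflux.

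In fatty acid synthesis and desaturation, 6 of 20 tested members were higher and 0 lower (median 0.13). SCD (ENSG00000099194.6, chr10:100347124-100364834, plus strand), the desaturase that makes oleate, had 31514, 33989 and 36307 in IC5, 19353, 20642 and 21316 in IC20/100 and 22513, 24153 and 25623 in control libraries. The 3 groups did not overlap at all, with IC5 highest and IC20/100 lowest. SCD differed by 0.72 ± 0.03 (limma adjusted p = 1.32e-29), with 0.49 ± 0.03 for IC5 minus control and -0.24 ± 0.03 for IC20/100 minus control, so that the sign against control differed between the concentrations. FADS2, the first desaturase of polyunsaturated fatty acids, had 9389 to 10645 in IC5, 6826 to 8400 in IC20/100 and 7253 to 8408 in control libraries (0.43 ± 0.04, limma adjusted p = 1.1e-14). The gene of FADS2 overlaps FEN1, and reads from the overlap could be split between them. PNPLA3, a lipase of lipid droplets and an SREBP-1 target, had 155 to 191 in IC5 and 84.9 to 117 in IC20/100 libraries (0.78 ± 0.13, 1.94e-05).

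FABP3 (ENSG00000121769.7, chr1:31365625-31376850, minus strand), a carrier of fatty acids, gave the largest log2 difference among the called members of the lists. Its normalized counts in replicates 1 to 8 were 77.0, 89.7, 76.7, 64.0, 73.5, 86.5, 77.9 and 85.7 in IC5 libraries. In the IC20/100 libraries they were 16.0, 13.2, 11.8, 20.9, 5.52, 12.8, 16.6 and 13.9, and the controls spanned 8.77 to 25.2. Every IC5 library lay above the controls, and IC20/100 and control libraries overlapped. The log2 difference was 2.45 ± 0.24 (limma adjusted p = 1.12e-12), equal to 5.46-fold on the log2(value + 2) scale, which understates the change of low genes. FABP3 was the 1 called gene of 24 tested in fatty acid oxidation and PPAR targets. CPT1A, which admits fatty acids to mitochondria, was not called, with 136 to 249 in IC5 and 117 to 194 in IC20/100 against 231 to 388 in control libraries (0.11 ± 0.13, limma adjusted p = 0.779). CPT1A was called against control at both concentrations, with log2 differences of -0.71 ± 0.13 for IC5 and -0.82 ± 0.13 for IC20/100.

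Phospholipid and sphingolipid genes gave 1 call each of 23 and 27 tested, both higher at IC5, where 2.3% of all genes were. PCYT2, the regulated step of phosphatidylethanolamine synthesis, had 507 to 637 in IC5 and 293 to 569 in IC20/100 libraries (0.47 ± 0.12, limma adjusted p = 0.00807). SGMS2, a sphingomyelin synthase, was called at 1.33 ± 0.41 (0.0491), but the call was lost in 12 of the 16 fits without 1 library and by edgeR (0.109) and DESeq2 (0.07). IC5 replicate 6 held 99.8 against 15.9 to 40.4 in the other IC5 libraries, and without it the limma adjusted p was 0.144. SMPD1, acid sphingomyelinase, an enzyme known to be inhibited by fluoxetine, had 289 to 485 in IC5 and 309 to 478 in IC20/100 libraries and was not called (0.08 ± 0.12, limma adjusted p = 0.833).

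Lysosomal genes rose in smaller number and size. Of 30 tested hydrolases, 7 were higher and 0 lower (median 0.11), of 26 membrane and pump genes 3 were higher and 0 lower (median 0.08), and of 28 autophagy and TFEB genes 6 were higher and 0 lower (median 0.06). NEU1, the lysosomal sialidase, had 425, 467 and 523 in IC5, 292, 349 and 391 in IC20/100 and 303, 345 and 357 in control libraries. The IC5 libraries lay above both other groups (0.46 ± 0.06, limma adjusted p = 1.46e-08). LIPA, the acid lipase that frees cholesterol from its esters, had 727 to 908 in IC5 and 587 to 749 in IC20/100 libraries (0.27 ± 0.06, 0.000506). LAMP2, a major membrane protein of the lysosome, had 1214 to 1425 in IC5, 921 to 1142 in IC20/100 and 1099 to 1270.3 in control libraries, with no overlap between the concentrations (0.39 ± 0.06, limma adjusted p = 7.56e-07). The hydrolase count was 4 without IC5 replicate 2 or 7 or without IC20/100 replicate 1, 4 or 8, and 3 with no run term or in the fit of the 16 libraries alone.

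Among autophagy genes, MAP1LC3A, the autophagosome protein, had 486 to 598 in IC5 and 338 to 452 in IC20/100 libraries without overlap (0.44 ± 0.08, limma adjusted p = 0.000131). WIPI1, which binds the phosphoinositide of the forming autophagosome, had 207 to 327 in IC5, 155 to 301 in IC20/100 and 226 to 348 in control libraries (0.57 ± 0.11, 0.000355). The WIPI1 call was lost in the 16 libraries alone (limma adjusted p = 0.0757). RRAGD, a small GTPase that recruits mTORC1 to the lysosome and is a TFEB target, had 1025 to 1454 in IC5 and 862 to 1179 in IC20/100 libraries (0.32 ± 0.06, 6.68e-05). OPTN, an autophagy receptor, overlapped more, at 818 to 1350 in IC5 and 624 to 1122 in IC20/100 libraries (0.38 ± 0.08, 0.000509). WIPI1 was not called against control at IC5 (0.03 ± 0.11) and lay below it at IC20/100 (-0.54 ± 0.11, limma adjusted p = 0.000228), and MAP1LC3A likewise (0.12 ± 0.08 and -0.32 ± 0.08, 0.00364). NEU1 was above control at IC5 (0.50 ± 0.06, limma adjusted p = 3.07e-10) and not called at IC20/100 (0.04 ± 0.06).

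Glycolysis and hypoxia genes had 12 of 31 members higher and 0 lower (median 0.14). They were glucose transporters (SLC2A1 and SLC2A3), enzymes of glycolysis and its control (HK2, GPI, PFKFB4, ALDOA, ALDOC and ENO2), mitophagy receptors (BNIP3 and BNIP3L), the collagen prolyl hydroxylase P4HA1 and the stress gene NDRG1, which had the largest difference (0.63 ± 0.19, limma adjusted p = 0.0483). The count of 12 was 8 with no run term, 9 in the 16 libraries alone and 9 to 12 without 1 fluoxetine library. SLC2A1, the general glucose transporter, had 1648 to 1889 in IC5, 1207 to 1565 in IC20/100 and 1295 to 1604 in control libraries (0.38 ± 0.06, limma adjusted p = 8.86e-07). SLC2A3, the neuronal glucose transporter, had 1342 to 1773 in IC5 and 969 to 1414 in IC20/100 libraries (0.50 ± 0.07, 6.46e-07). ALDOC, the brain form of aldolase, had 859 to 1008 in IC5 and 561 to 805 in IC20/100 libraries with no overlap (0.44 ± 0.08, 0.000172). The abundant glycolytic enzymes LDHA, PKM and ENO1 were not called, with differences of -0.04 ± 0.07, -0.03 ± 0.03 and 0.02 ± 0.04. Of 21 NRF2 targets, 5 were higher and 1 was lower, the higher ones including both ferritin chains, FTL at 9124 to 11003 in IC5 and 6644 to 8939 in IC20/100 libraries (0.35 ± 0.07, limma adjusted p = 0.000212) and FTH1 at 15130 to 17122 in IC5 and 12451 to 14802 in IC20/100 libraries (0.25 ± 0.06, 0.00537). The lower one was SLC7A11, which also belongs to the ATF4 list.

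Of 31 tested ATF4 response genes, 14 were lower at IC5 and 1 was higher, against 1.46% and 2.3% of all genes. Below control at each concentration were 29 of them, where 5.94% of all genes were at IC5 and 7.54% at IC20/100. SLC7A11 (ENSG00000151012.13, chr4:138164097-138242349, minus strand), which imports cystine for glutathione synthesis, had normalized counts in replicates 1 to 8 of 116, 98.9, 56.5, 92.0, 87.3, 88.1, 83.2 and 100.4 in IC5 libraries. In the IC20/100 libraries it had 137, 165, 206, 231, 225, 199, 182 and 159, and the controls had 439.6, 758 and 851 (lowest, median and highest). The 3 groups did not overlap, with IC5 lowest and control highest. SLC7A11 differed by -1.10 ± 0.13 (limma adjusted p = 1.4e-09), and stood at -3.04 ± 0.13 for IC5 minus control and -1.94 ± 0.13 for IC20/100 minus control. PCK2 (ENSG00000100889.11, chr14:24094053-24110598, plus strand), the mitochondrial phosphoenolpyruvate carboxykinase, had 57.0, 74.3 and 101 in IC5, 104, 139 and 212 in IC20/100 and 373, 431 and 604 in control libraries (-0.93 ± 0.17, limma adjusted p = 8.96e-05). Its groups did not overlap either.

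ASNS (ENSG00000070669.17, chr7:97852118-97872542, minus strand), which makes asparagine and whose promoter holds the TGATGNAA match above, had 996, 1236 and 1324 in IC5, 1570, 1757 and 1996 in IC20/100 and 3092, 3778 and 4228 in control libraries. The concentrations did not overlap (-0.56 ± 0.07, limma adjusted p = 1.27e-08), and the annotated transcript AC079781.5 overlaps the gene. MTHFD2, of mitochondrial one-carbon metabolism, had 257 to 355 in IC5, 354 to 563 in IC20/100 and 681 to 1077 in control libraries (-0.59 ± 0.08, 1.12e-08), the highest IC5 library just above the lowest IC20/100 one. SLC7A5, a transporter of large neutral amino acids, had 861 to 1129 in IC5, 1275 to 1687 in IC20/100 and 3572 to 5982 in control libraries (-0.55 ± 0.11, limma adjusted p = 0.000247). CHAC1, which breaks down glutathione and is named here for its promoter after its values were seen, had 56.9 to 90.8 in IC5, 80.4 to 113 in IC20/100 and 294 to 461 in control libraries (-0.41 ± 0.11, 0.0188). That call was lost without IC5 replicate 4 (limma adjusted p = 0.0583), IC20/100 replicate 5 (0.0831) or IC20/100 replicate 8 (0.056). It was also lost in the 16 libraries alone (limma adjusted p = 0.0676).

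Among the other members that were lower, named after their values were seen, were enzymes that make or use serine, with PHGDH at -0.48 ± 0.06 (limma adjusted p = 7.25e-09), PSAT1 at -0.32 ± 0.04 (1.57e-08), SHMT2 at -0.43 ± 0.07 (1.18e-06) and CBS, which joins serine to homocysteine, at -0.42 ± 0.07 (1.54e-05). The transcript of ATF4 itself was slightly lower, at 3768 ± 187 (mean ± SD) in IC5, 4374 ± 286 in IC20/100 and 5447 ± 236 in control libraries (-0.21 ± 0.06, limma adjusted p = 0.0132). DDIT3, which encodes the pro-apoptotic factor CHOP, was not called (0.17 ± 0.11), nor was TRIB3, its target (0.09 ± 0.13). PPP1R15A, which restores translation after stress, was the 1 member that was higher (0.20 ± 0.05, limma adjusted p = 0.0147). Against the shared controls, 29 of 31 tested members were lower and 0 higher at IC5 (median -1.13), and likewise 29 lower and 0 higher at IC20/100 (median -0.97). The IC5 and IC20/100 libraries thus both stood far below the control level for this list, and the step between them was small beside that distance. SLC6A9, a glycine transporter of the transmitter list, had 88.9 to 151 in IC5, 159.8 to 256 in IC20/100 and 384 to 501 in control libraries (-0.73 ± 0.13, limma adjusted p = 3.53e-05), the same order of groups.

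**Figure D3:**
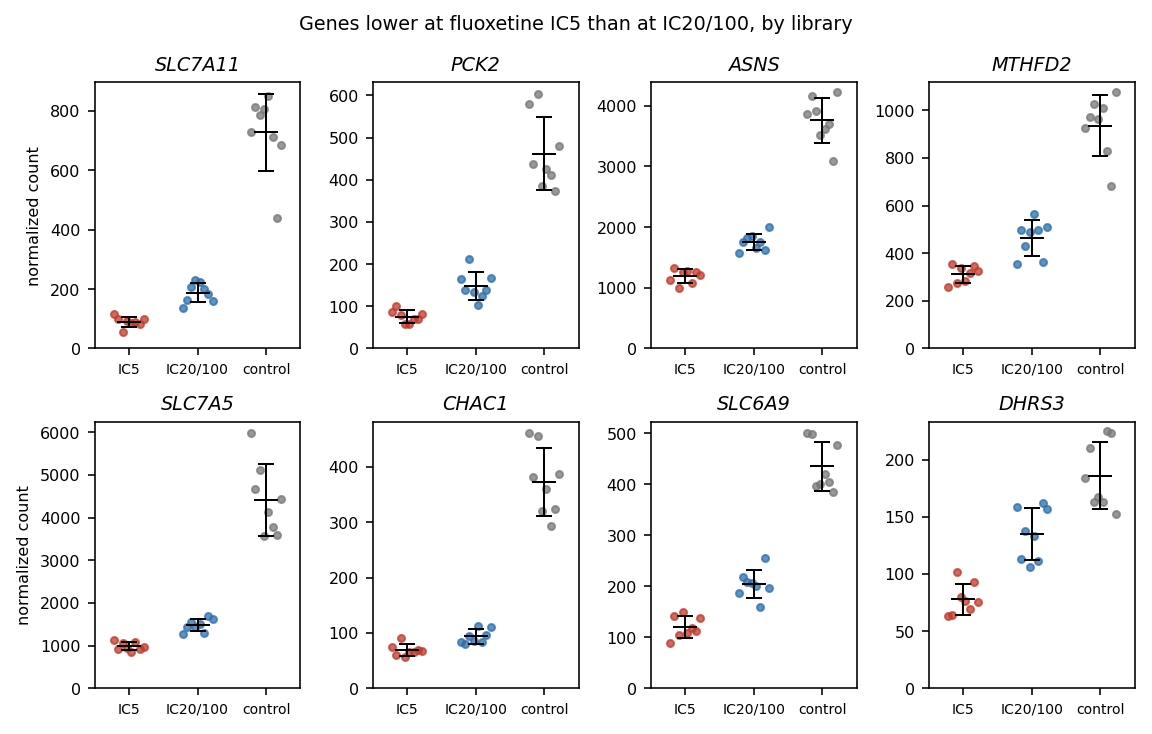
Normalized count of 8 genes lower at fluoxetine IC5 (red) than at IC20/100 (blue), with unexposed controls in grey, for each library, and the mean and SD of 8 libraries in black. In each panel the mean of the controls is highest and that of IC5 lowest, for example SLC7A11 at 56.5 to 116 in IC5, 137 to 231 in IC20/100 and 439.6 to 851 in control libraries.

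Several genes were below control at IC20/100 and were not called against control at IC5. CTGF (ENSG00000118523.6, chr6:131948176-131951373, minus strand), a secreted matrix-associated factor and a target of YAP, had 642, 759 and 964 in IC5, 327, 366 and 479 in IC20/100 and 663, 764 and 808 in control libraries. The IC5 and control ranges overlapped almost fully, and every IC20/100 library lay below both. CTGF differed by 0.97 ± 0.07 (limma adjusted p = 2.06e-18), with 0.02 ± 0.07 for IC5 minus control and -0.95 ± 0.07 for IC20/100 minus control. ANXA2, a calcium-dependent membrane-binding protein, had 615 to 896 in IC5, 295 to 509.9 in IC20/100 and 508 to 838 in control libraries (0.94 ± 0.09, limma adjusted p = 3.68e-13). ADAMTSL4, a matrix protein of microfibrils, had 159 to 286 in IC5, 88.3 to 151 in IC20/100 and 130.3 to 285 in control libraries (0.83 ± 0.14, 2.14e-05). PMEL, a pigment cell protein, had 57.8 to 93.3 in IC5, 14.8 to 53.6 in IC20/100 and 36.9 to 96.3 in control libraries (1.15 ± 0.27, 0.00361). In the 16 libraries alone PMEL was not called (limma adjusted p = 0.0603).

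BLVRB, a biliverdin and flavin reductase, had 74.8 to 129 in IC5, 39.5 to 78.4 in IC20/100 and 68.0 to 95.6 in control libraries (0.79 ± 0.10, limma adjusted p = 2.38e-08). A2M, a protease inhibitor, had 380.4 to 737 in IC5 and 232 to 427 in IC20/100 libraries (0.79 ± 0.22, 0.0232), and lost the call without IC5 replicate 5 or 7 or IC20/100 replicate 2, 4 or 6 (limma adjusted p between 0.0553 and 0.0886). THBS1, thrombospondin-1, had 77.7 to 195 in IC5, 17.2 to 69.6 in IC20/100 and 22.6 to 142 in control libraries (1.57 ± 0.47, 0.0382). Although its 2 concentrations did not overlap, 10 of the 16 fits with 1 fluoxetine library left out put its limma adjusted p above 0.05, at most 0.0979 without IC20/100 replicate 4.

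Other genes were above control at IC5. PRODH (ENSG00000100033.16, chr22:18912777-18936553, minus strand), which starts the breakdown of proline, had 217, 240.4 and 278 in IC5, 101, 125 and 149 in IC20/100 and 104, 108 and 145 in control libraries. Every IC5 library lay above every library of the other groups (0.93 ± 0.13, limma adjusted p = 1.49e-07). BHLHE40, a transcriptional repressor of the clock and of hypoxia, had 330.2, 359 and 418 in IC5, 117, 152 and 261 in IC20/100 and 178, 223 and 276 in control libraries (1.22 ± 0.17, 1.14e-07). BHLHE40 was above control at IC5 (0.71 ± 0.17, limma adjusted p = 0.00164) and below it at IC20/100 (-0.51 ± 0.17, 0.0279), while PRODH was not called at IC20/100 against control (0.10 ± 0.13). SLC29A2, a nucleoside transporter, had 71.0 to 107 in IC5, 41.0 to 65.9 in IC20/100 and 48.2 to 87.6 in control libraries (0.80 ± 0.10, limma adjusted p = 1.46e-08).

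**Figure D4:**
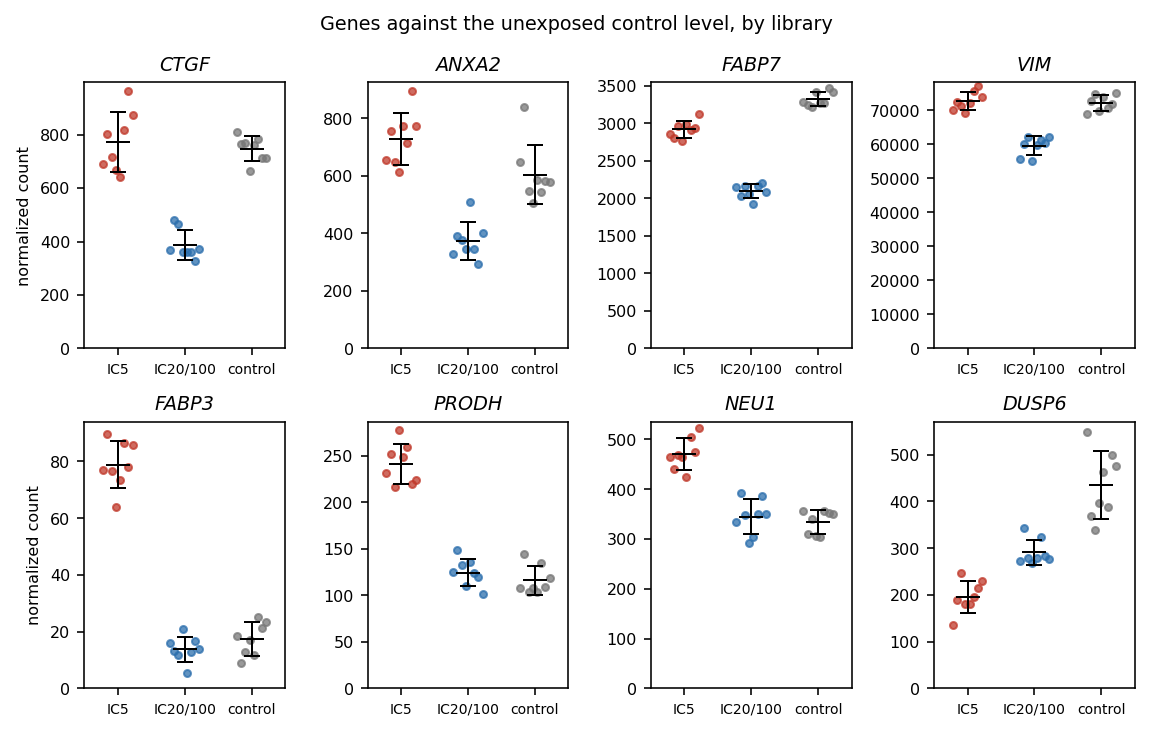
Normalized count of 8 genes in each library of fluoxetine IC5 (red), IC20/100 (blue) and unexposed control (grey), with the mean and SD of 8 libraries in black. CTGF, ANXA2 and VIM have IC5 libraries in or just above the control range and IC20/100 libraries lower, FABP3, PRODH and NEU1 have IC5 above both other groups, and DUSP6 is lowest at IC5 (136 to 246).

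Progenitor and radial glia genes moved both ways, with 3 of 24 higher and 4 lower, against 2.3% and 1.46% of all genes. FABP7, the fatty acid binding protein of radial glia, had 2771, 2920.4 and 3124 in IC5, 1928, 2119 and 2212 in IC20/100 and 3226, 3283 and 3474 in control libraries. The 3 groups did not overlap and IC20/100 was lowest (0.47 ± 0.07, limma adjusted p = 3.18e-07). VIM, the filament protein vimentin, had 69285 to 77117 in IC5, 55175 to 62150 in IC20/100 and 68854 to 75017 in control libraries (0.28 ± 0.05, 2.14e-05). LIN28A, which binds RNA and marks early progenitors, had 120.1 to 165 in IC5, 86.6 to 105 in IC20/100 and 162 to 219 in control libraries (0.49 ± 0.08, 1.54e-06). NES, nestin, was lower at 14993 to 16542 in IC5 against 15863 to 17591 in IC20/100 libraries (-0.14 ± 0.04, limma adjusted p = 0.029), a call lost without IC5 replicate 1 or 2 or IC20/100 replicate 1, 3 or 8 (0.0509 to 0.0835). SOX2, the factor that marks neural stem cells, was not called (-0.02 ± 0.03, limma adjusted p = 0.875). The count of 4 lower progenitor genes was 1 without IC20/100 replicate 8 and 2 without IC5 replicate 1, 2 or 3 or IC20/100 replicate 1 or 3. In bulk RNA, fewer cells of a type and less RNA per cell cannot be told apart.

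Of 32 cell cycle genes, 10 were lower at IC5 and 0 higher (median -0.20). CENPF, a kinetochore protein, had 1958 to 2931 in IC5, 2646 to 4119 in IC20/100 and 2656 to 3508 in control libraries (-0.40 ± 0.10, limma adjusted p = 0.0108). PCNA, the sliding clamp of DNA replication, had 1389.8 to 1608 in IC5, 1568 to 1935 in IC20/100 and 1106 to 1484 in control libraries (-0.23 ± 0.07, 0.0408). MKI67, a marker of dividing cells, was near the threshold at -0.21 ± 0.07 (limma adjusted p = 0.0491), and lost its call in 14 of the 16 fits without 1 library (up to 0.139, without IC20/100 replicate 2). PCNA lost its call in 8 of these fits (up to 0.124, without IC5 replicate 2). Against the shared controls, 4 members of the list were higher and 9 lower at IC5, and 16 were higher and 3 lower at IC20/100. Over all genes tested, 5.47% were higher and 5.94% lower at IC5, and 6.88% were higher and 7.54% lower at IC20/100. The count of 10 rests on the libraries in the fit, since it was 5 without IC5 replicate 1, 4 without IC5 replicate 2, 6 without IC5 replicate 4 or 7, 4 without IC20/100 replicate 5, 3 without IC20/100 replicate 8 and 2 in the fit of the 16 libraries alone. CDKN2C, an inhibitor of the cyclin D kinases, was lower as well, at 19.5 to 62.2 in IC5 and 50.2 to 87.0 in IC20/100 libraries (-0.86 ± 0.20, limma adjusted p = 0.00412). In the 16 libraries alone CDKN2C was not called (limma adjusted p = 0.109).

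The gene of the main target was not called. SLC6A4, the serotonin transporter, was scarce at 10.3 to 25.2 in IC5, 10.9 to 35.4 in IC20/100 and 9.79 to 40.6 in control libraries (-0.17 ± 0.22, limma adjusted p = 0.816). Among 13 tested receptors and enzymes of serotonin and adrenergic signalling, 2 were higher and 1 was lower, against 2.3% and 1.46% of all genes. ADRA2A, an inhibitory adrenergic receptor, had 133, 143 and 174 in IC5, 76.3, 99.5 and 114 in IC20/100 and 49.5, 63.0 and 72.3 in control libraries. Its groups did not overlap and were ordered IC5, IC20/100, control from high to low (0.62 ± 0.09, limma adjusted p = 6.65e-07). ADRA1A, a receptor coupled to calcium release, had 63.6 to 103 in IC5, 25.6 to 67.2 in IC20/100 and 84.6 to 122 in control libraries (0.81 ± 0.17, 0.000745). HTR2C, a serotonin receptor that fluoxetine also binds, was scarce and lower at 15.9 to 23.0 in IC5 against 20.2 to 43.5 in IC20/100 libraries (-0.63 ± 0.15, 0.00518).

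Few neuronal genes were called. DCX, a microtubule protein of young neurons, was not called (-0.04 ± 0.06, limma adjusted p = 0.83), nor was MAP2, the dendritic microtubule protein (-0.14 ± 0.05, 0.131), although MAP2 passed with a replicate block beside run (0.0478), in the 16 libraries alone (0.0251), with the block in place of run there (0.0246) and without methyl mercury IC20/100 replicate 8 (0.00027). NEFL, the light neurofilament, had 2200.3 to 2503 in IC5, 1797 to 2038 in IC20/100 and 2433 to 2609 in control libraries, with no overlap between the concentrations (0.29 ± 0.03, limma adjusted p = 2.98e-10). VAMP2, of the synaptic vesicle, was higher by 0.18 ± 0.05 (0.0261) and SYN1, synapsin, by 0.32 ± 0.09 (0.0275). The VAMP2 call was lost without IC5 replicate 2 or 6 or IC20/100 replicate 5 or 6 (0.0531 to 0.065) and with no run term (0.0627). That of SYN1 was lost without IC5 replicate 2, 4 or 6 or IC20/100 replicate 5 or 7 (0.0628 to 0.133) and in the 16 libraries alone (0.157). NEFL, VAMP2 and SYN1 were among the called members of the 32 genes of mature neurons and synapses (4 higher, 0 lower, median 0.01), a count that was 1 without IC5 replicate 2 or IC20/100 replicate 5 and 2 without IC5 replicate 4 or 6 or IC20/100 replicate 6 or 7. NEUROD1, a proneural factor, had 139 to 217 in IC5 and 190 to 266 in IC20/100 libraries (-0.31 ± 0.06, limma adjusted p = 0.000192). GAD2, which makes GABA, was at 23.3 to 80.7 in IC5, 46.1 to 100.5 in IC20/100 and 43.4 to 125 in control libraries (-0.85 ± 0.26, 0.0431), and 10 of the 16 fits without 1 library lost its call, with adjusted p up to 0.159 without IC5 replicate 6. LMX1B, a factor of serotonergic and dopaminergic neurons, had 3092 to 3632 in IC5, 2876 to 3259.9 in IC20/100 and 2501 to 2785 in control libraries (0.16 ± 0.04, limma adjusted p = 0.0055).

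A pair of phosphatase genes that restrain ERK and related kinases were lower at IC5. DUSP6, a phosphatase that ERK signalling induces and that inactivates ERK, had 136, 192 and 246 in IC5, 267, 279 and 342 in IC20/100 and 339, 430.3 and 549 in control libraries. All IC5 libraries lay below the IC20/100 libraries (-0.58 ± 0.11, limma adjusted p = 6.61e-05), and the difference from control was -1.15 ± 0.11 at IC5 and -0.57 ± 0.10 at IC20/100. DUSP4, a related phosphatase, had 1130.1 to 1202 in IC5, 1376 to 1505 in IC20/100 and 1464 to 1576 in control libraries (-0.32 ± 0.02, 7.97e-17). JUN, an immediate early factor, was higher at 2479.7 to 3132 in IC5, 1924 to 2206 in IC20/100 and 2189.7 to 2857 in control libraries (0.49 ± 0.05, limma adjusted p = 8.04e-12). The list of immediate early and FGF feedback genes had 1 of 21 tested members higher and 3 lower, against 2.3% and 1.46% of all genes. NRARP, HES5 and DLL1 were the 3 lower genes of 18 in Notch signalling (1.46% of all genes), with differences of -0.19 ± 0.05, -0.24 ± 0.07 and -0.10 ± 0.03. That count was 1 without IC5 replicate 2, 5 or 7 or IC20/100 replicate 2, 3, 7 or 8.

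In retinoic acid metabolism, DHRS3, which reduces retinal, had 63.3, 75.8 and 102 in IC5, 106, 135 and 162 in IC20/100 and 152, 176 and 225 in control libraries. The concentrations did not overlap and IC5 was lowest (-0.76 ± 0.13, limma adjusted p = 1.94e-05). CRABP1, a binding protein of retinoic acid, was higher at 3338 to 3809 in IC5, 2069 to 2932 in IC20/100 and 2954 to 4082 in control libraries (0.42 ± 0.07, 1.25e-05). Of 32 axon guidance genes 5 were lower and 1 higher, against 1.46% and 2.3% of all genes. The lower count was 3 without IC5 replicate 2 or 6 and 2 in the 16 libraries alone, and the higher one was 0 in 11 of the 16 fits without 1 library. NTN1, the guidance cue netrin-1, was lower at 1339 to 1509 in IC5 and 1520.1 to 1720 in IC20/100 libraries (-0.20 ± 0.03, limma adjusted p = 1.18e-05).

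Summed over 5 markers of progenitors, most of it VIM, normalized counts were 90714 to 99766 in IC5, 76912 to 85195 in IC20/100 and 91099 to 98243 in control libraries. Summed over 7 markers of astrocytes they were 3745 to 4771 in IC5, 4200 to 5348 in IC20/100 and 4436 to 5724 in control libraries. Over all 20 genes of the astrocyte list the sums were 20298 to 24009 in IC5 (median 22969) and 20496 to 23074 in IC20/100 (median 22059). The controls spanned 22911 to 25043. Of the 18 astrocyte genes tested, 1 was higher and 2 were lower at IC5 (median -0.01). Mesenchymal and pericyte markers had 6 of 11 tested genes higher and 0 lower (median 0.39), with the sum over all 13 at 2074 to 3014 in IC5, 1712 to 2208 in IC20/100 and 2014 to 2769.5 in control libraries. COL3A1, a fibrillar collagen, had 161 to 284 in IC5, 74.2 to 151 in IC20/100 and 91.5 to 149 in control libraries (1.03 ± 0.13, 1.57e-08). COL1A1, the main collagen of connective tissue, had 104 to 360.1 in IC5 and 58.1 to 149 in IC20/100 libraries (1.10 ± 0.29, 0.0127), and its call was lost without IC5 replicate 7 (0.0544). LUM, lumican, had 12.1 to 47.6 in IC5 and 2.98 to 27.1 in IC20/100 libraries (1.20 ± 0.32, 0.0172), with the same sign in 4 of 6 runs, and lost its call without IC5 replicate 7 or 8 or IC20/100 replicate 8 (0.0511 to 0.0575). The LUM call was also lost in the 16 libraries alone (limma adjusted p = 0.236). The count of 6 was 3 without IC5 replicate 7 and in the fit of the 16 libraries alone. CTGF, ANXA2 and THBS1, described above, are matrix-related genes that moved with these markers, and the part of a mesenchymal cell fraction in their difference was not tested. Microglia markers were nearly absent, with 1 of 10 tested and a sum of at most 26.4 in IC5, 19.9 in IC20/100 and 38.3 in control libraries.

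The share of the deposited values from mitochondrially encoded genes averaged 2.65% ± 0.146 in IC5, 2.59% ± 0.107 in IC20/100 and 2.47% ± 0.0963 in control libraries (SD). The difference between the concentrations was within the spread between libraries (exact two-sided permutation p = 0.357, n = 8 in each group). Single members moved in opposite directions, with MT-ND4 at 65965 to 79660 in IC5 and 56832 to 67271 in IC20/100 libraries (0.20 ± 0.05, limma adjusted p = 0.00611) and MT-CO3 at 37719 to 44905 in IC5 and 45897 to 52578 in IC20/100 libraries (-0.23 ± 0.06, 0.00525).

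Among the genes with the largest falls, several were low or uneven. MOXD1, a monooxygenase-like protein, had 259 to 402 in IC5, 403 to 625 in IC20/100 and 302 to 528 in control libraries (-0.69 ± 0.11, limma adjusted p = 7.01e-06). SCRG1, a secreted protein of neural and mesenchymal cells, had 34.9 to 53.1 in IC5, 43.4 to 81.2 in IC20/100 and 148 to 187 in control libraries (-0.64 ± 0.10, 3.86e-06). CDH13, a cadherin without a cytoplasmic tail, had 18.7 to 49.9 in IC5 and 40.8 to 119 in IC20/100 libraries (-0.89 ± 0.22, 0.00611). RPH3A, a synaptic vesicle protein, had 20.0 to 86.5 in IC5 and 33.1 to 92.7 in IC20/100 libraries (-0.98 ± 0.25, 0.0112), and missed the threshold without IC5 replicate 6 (0.0525). The remaining falls of the rule, UCP3, ARHGAP27, AKNAD1 and HNRNPM, had groups that overlapped and limma adjusted p between 0.0075 and 0.0302. Of these, UCP3 lost its call without IC5 replicate 1 or IC20/100 replicate 1, 2 or 7, ARHGAP27 without IC20/100 replicate 5 or 6, and HNRNPM without IC5 replicate 1, 2 or 8 or IC20/100 replicate 3, 4 or 5. AKNAD1 overlaps AL449266.1 in the annotation, so its reads could be split between the 2 genes.

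Several calls rested on few libraries. DCLK3, a kinase gene, had the largest fall of the genes with a mean of at least 50 (-1.24 ± 0.37, limma adjusted p = 0.0403), but IC20/100 replicate 5 held 965 while the other 7 IC20/100 libraries held 7.38 to 17.1 and the IC5 libraries 4.6 to 13.8. Without that library the limma adjusted p was 0.367. TCP11L2 had the largest rise of the genes with a mean of at least 50 (1.91 ± 0.44, 0.00331). Its IC5 libraries fell into 5 between 419 and 844 and 3 between 71.5 and 102, the 3 low ones within the range of the IC20/100 libraries (63.2 to 113), and the sign was the same in 4 of 6 runs. The TCP11L2 call was lost in the 16 libraries alone (limma adjusted p = 0.11). AC010422.6, which overlaps ZNF490 and ZNF564 in the annotation, held 0 in IC20/100 replicate 6 and 53.1 to 112 in the other IC20/100 libraries, and without that library its limma adjusted p was 0.145. Genes named above that overlap another annotated gene, so that reads of the overlap could be counted in either, are also NPC2 (MIR4709), COL3A1 (MIR3606), PNPLA3 (SAMM50), SLC2A1 (AC099795.1), NEUROD1 (CERKL), SYN1 (AL009172.2), VAMP2 (AC129492.3), MT-ND4 (MT-ND4L) and MT-CO3 (MT-ATP6).

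Chlorpyrifos and methyl mercury were given in the same vehicle at concentrations of the same names, and the difference between their 2 concentrations was set against that of fluoxetine by an interaction term. The log2 difference of fluoxetine stood apart from that of chlorpyrifos in 378 genes (1.88%) and from that of methyl mercury in 851 genes (4.23%). Between their own concentrations, 10 genes (0.0497%) were called for chlorpyrifos and 1042 (5.17%) for methyl mercury. Methyl mercury IC20/100 replicate 8, with the highest deposited total (20.95 M), is part of the methyl mercury comparisons. Without it 942 genes had an interaction with methyl mercury, and the calls between the methyl mercury concentrations without it are not given here. In cholesterol synthesis, 12 of 24 genes had a larger difference with fluoxetine than with chlorpyrifos, against 1.16% of all genes, and 20 of 24 a larger one than with methyl mercury, against 2.47%. For methyl mercury itself, 0 of the 24 were higher and 7 lower at its IC5, against 2.58% and 2.6% of all genes. For HMGCS1 the log2 difference was 0.67 with fluoxetine, 0.00 with chlorpyrifos and -0.03 with methyl mercury, and fluoxetine stood apart from both (0.67 ± 0.06, limma adjusted p = 9.27e-14, and 0.70 ± 0.06, 8.24e-15). FABP3 had 2.45 with fluoxetine, -0.29 with chlorpyrifos and -0.32 with methyl mercury, with interactions of 2.74 ± 0.34 (limma adjusted p = 1.16e-08) and 2.77 ± 0.34 (5.17e-09).

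Of the 31 tested genes of the ATF4 list, 24 were higher and 0 lower at methyl mercury IC5 than at its IC20/100 (median 0.45). Over all genes tested, 2.58% were higher and 2.6% lower. In 20 of the 31 the difference was more negative with fluoxetine than with methyl mercury, against 1.76% of all genes. SLC7A11 had -1.10 with fluoxetine, -0.41 with chlorpyrifos and 1.43 with methyl mercury, and the interaction with methyl mercury was -2.53 ± 0.19 (limma adjusted p = 7.4e-18). Set against chlorpyrifos, 6 members had a more negative difference with fluoxetine (0.72% of all genes), among them SLC7A11 (-0.69 ± 0.19, limma adjusted p = 0.0288) and ASNS (-0.37 ± 0.10, 0.0313). CPT1A had 0.11 with fluoxetine and 1.98 with chlorpyrifos (-1.87 ± 0.19, limma adjusted p = 5.27e-12).

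**Figure D5:**
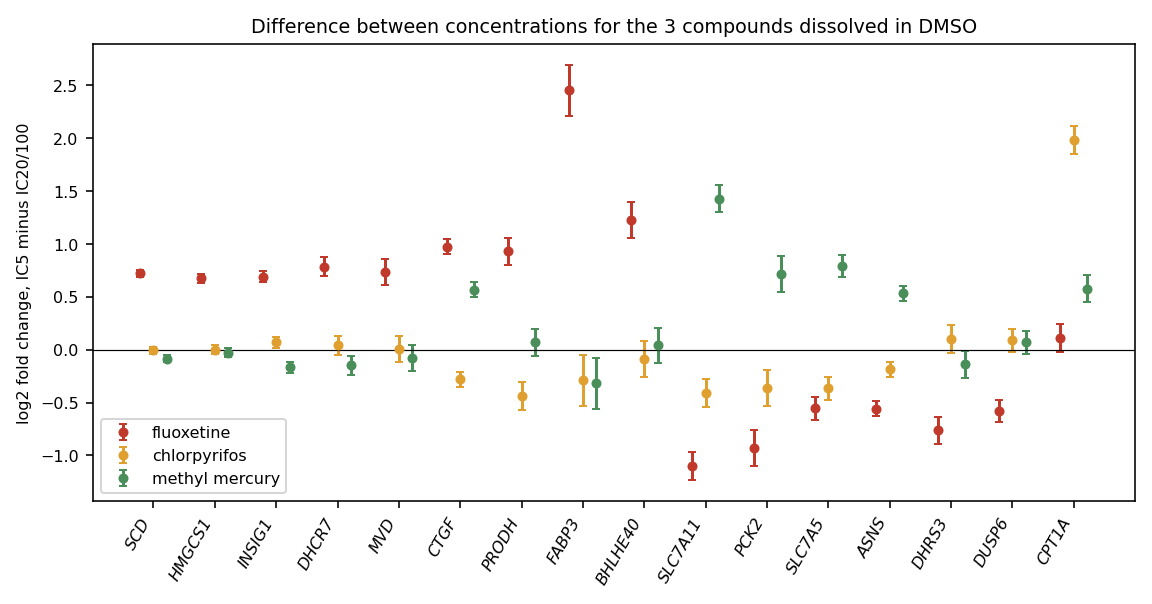
Log2 difference between IC5 and IC20/100 (points, with SE as bars) of 16 genes for fluoxetine (red), chlorpyrifos (yellow) and methyl mercury (green), 8 libraries per group. The sterol genes at the left have positive differences with fluoxetine, for example HMGCS1 at 0.67 with fluoxetine, 0.00 with chlorpyrifos and -0.03 with methyl mercury, while SLC7A11, PCK2, SLC7A5 and ASNS have opposite signs with fluoxetine and methyl mercury.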

How the data were processed

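Libraries were prepared from poly(A) RNA with a stranded kit and pooled in sets of 16, per the labels' protocols, and each library belongs to 1 of 6 sequencing runs. The submitters' processing notes name bcl2fastq, FastQC 0.11.8, MultiQC 1.0, Salmon 1.3.0, DESeq2 1.30.0 and GRCh38, without their settings. The deposited table holds normalized counts of 58434 genes in 96 libraries, whose values are a signal of whole reads divided by 1 size factor per library, so that division of each column by its smallest step gave whole reads for 100% of positive values (tolerance 0.001). Counts recovered this way gave the depths. Deposited totals were 18.11 to 20.95 M, and differences are relative to the other genes. Standard errors rest on the spread within groups, pooled over the libraries in the fit, and cover no variation between experiments.

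Differences were tested with limma 3.58.1 (R 4.3.3, trended empirical Bayes, 72 residual degrees of freedom) on log2(value + 2) in the 88 day 10 libraries of 11 groups, with run in the model. Adjustment was over 20136 genes, and a gene was called at 0.05. The fit was also run on simulated counts with known changes, the same dispersion for every gene and no run effect. That setting is simpler than these data, so it does not test the calls made here. Positions are from GENCODE 29 (GRCh38), which matched 58171 genes. Alternatives were other pseudocounts, filters, TMM scaling, no run term, a replicate block, the 16 libraries alone, and edgeR 4.0.16 and DESeq2 1.42.0 on recovered reads. Single libraries of the fluoxetine, control, chlorpyrifos and methyl mercury groups were also left out, but none of acrylamide or valproic acid. Among 84 pairs of libraries within groups none agreed within counting noise.

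Replicate numbers were not used to pair libraries, since the labels give a shared number no shared source. Members and gene lists were chosen with earlier results of these data known. The named genes are the 15 protein-coding genes with the largest rise and the 15 with the largest fall among called genes (1.5-fold or more, mean 50 or more), up to 5 called members per list, 16 genes of a set list, and the 4 largest interactions each way. The interactions were ranked among protein-coding genes under the same limits of fold and mean. CHAC1 and other list members given by a difference alone were named after their values were seen. Some genes are not reported here.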

Additional observations from a re-analysis of the deposited data

Results flagged for a closer look

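A library stood apart from the other 7 of its group when its gap to the nearest of them, as a share of the range of the group, was above the 95% critical value of Dixon's test. This held in 19 of the 238 gene and group pairs examined, where chance gives about 1 in 20. In the IC5 group the highest library stood apart for MVD (share 0.559), SGMS2 (0.709), ATP6AP1 (0.601), SCRG1 (0.581) and ARHGAP27 (0.575). In the same group the lowest library stood apart for MSMO1 (0.693), LAMP2 (0.597), RRAGD (0.593) and ADRA1A (0.569). IC5 replicate 3 was the library in question for MVD at 3265 and for MSMO1 at 3292. The same library stood apart for ATP6AP1 (2257), LAMP2 (1214), RRAGD (1025) and ADRA1A (63.6). The calls of all these genes remained without it.

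In the IC20/100 group the highest library stood apart for DCLK3 (0.99), GFAP (0.768), DHCR7 (0.689), SLC2A3 (0.641), RBFOX1 (0.638), COL1A1 (0.597), SREBF2 (0.563), HTR2C (0.546) and TCP11L2 (0.534), and the lowest for RPH3A (0.572). For GFAP, replicate 4 held 116 against a group median of 20.4. For DCLK3, replicate 5 held 965 against a group median of 12.8.

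The difference between the concentrations of fluoxetine stood apart from that of chlorpyrifos, by the interaction term, with the largest ranked values in 8 genes. The ranking, here and for methyl mercury below, took protein-coding genes called by the interaction (1.5-fold or more, mean 50 or more over the 16 fluoxetine libraries). FABP3 had a larger interaction, given above, but lay under that mean and was not ranked. BHLHE40 had an interaction of 1.31 ± 0.24 (SE, limma adjusted p = 0.000184), CTGF of 1.25 ± 0.10 (3.31e-16), PRODH of 1.37 ± 0.18 (1.31e-07) and THBS2, a matrix glycoprotein, of 1.47 ± 0.34 (0.00681). Negative interactions were -1.87 ± 0.19 for CPT1A (limma adjusted p = 5.27e-12), -1.46 ± 0.36 for RPH3A (0.0122), -1.11 ± 0.31 for CDH13 (0.0357) and -0.86 ± 0.19 for DHRS3 (0.00238). The value for CPT1A came from chlorpyrifos, where its difference was 1.98 ± 0.13, while its fluoxetine difference was 0.11 ± 0.13.

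Against methyl mercury the positive interactions were 1.48 ± 0.45 for RBFOX1, a neuronal splicing factor (limma adjusted p = 0.039), 1.45 ± 0.41 for COL1A1 (0.0218), 1.39 ± 0.33 for MYO15A, a myosin (0.00481), and 1.32 ± 0.41 for R3HDM2 (0.0497), which overlaps AC137834.1. The negative ones were -2.53 ± 0.19 for SLC7A11 (limma adjusted p = 7.4e-18), -1.65 ± 0.24 for PCK2 (1.01e-06), -1.34 ± 0.15 for SLC7A5 (4.04e-10) and -1.27 ± 0.35 for YBX3, an RNA-binding protein (0.0171). For SLC7A11, PCK2 and SLC7A5 the methyl mercury difference was positive (1.43, 0.72 and 0.79) and that of fluoxetine negative (-1.10, -0.93 and -0.55). RBFOX1 was not called between the fluoxetine concentrations (0.64, limma adjusted p = 0.331), nor was MYO15A (0.69). The fluoxetine difference of YBX3 was -0.28, a small part of its interaction. All these interactions include methyl mercury IC20/100 replicate 8.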

How the results depend on the processing

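The count of 758 called genes was 756 to 758 with other pseudocounts, 585 with no filter, 765 with a stricter filter, 761 with TMM scaling, 591 with no run term, 766 with edgeR and 878 with DESeq2. The fit of the 16 fluoxetine libraries alone called 450 genes, 317 higher and 133 lower, which has fewer samples behind the estimate of spread. Genes lower by at least 1.5-fold, 46 in all, were 24 with a pseudocount of 10, 30 with the stricter filter, 24 in the 16 libraries alone and 73 with DESeq2. With 1 fluoxetine library or methyl mercury IC20/100 replicate 8 left out, the calls were 622 to 1175, of which 386 to 699 higher and 223 to 476 lower. Those of at least 1.5-fold were 84 to 103 higher and 38 to 57 lower. The highest counts of all called, higher and lower genes came without methyl mercury IC20/100 replicate 8, and the cause was not tested. The highest 1.5-fold counts came without IC5 replicate 4 (103 higher) and without IC5 replicate 5 (57 lower). Leaving out 1 library of the groups compared, or that methyl mercury library, gave 1967 to 3084 genes for IC5 minus control and 2469 to 3643 for IC20/100 minus control. It gave 325 to 651 for the interaction with chlorpyrifos and 681 to 963 for that with methyl mercury. Without 1 fluoxetine library the mitochondrial share difference was 0.0355 to 0.0844 percentage points. Of the 107 called genes among the 119 named for which alternatives were run, 63 kept call and direction in all of them, 44 lost the call in at least 1 and 0 reversed. In the 16 libraries alone, 118 of the named genes were tested, of which 30 lost the call and 2 gained it.

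With the replicate block beside run, 875 genes were called. With the block in place of run in the 16 libraries, 376 were called, 259 higher and 117 lower, and 16 were lower by at least 1.5-fold. The deviations of same-numbered libraries from their group means correlated above 0.1 in 5 of 8 pairs with run removed (median 0.107, against 0.0716 for other numbers) and in 1 of 8 with run kept, and 2 of 8 IC5 libraries correlated best with their own number.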

Other observations

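Several groups of genes that the comparison could bear on had few called members. Of 24 tested p53 targets 2 were higher at IC5, ZMAT3 (0.32 ± 0.08, SE, limma adjusted p = 0.00586) and CCNG1 (0.27 ± 0.04, 6.92e-06), and 1 was lower, AEN (-0.20 ± 0.05, 0.00481), while 16 were lower and 0 higher than control at each concentration. Of 21 endoplasmic reticulum chaperones 2 were higher and 0 lower, of 14 heat shock proteins 1 was higher and 0 lower, and of 7 tested metallothionein and zinc genes 0 were called. Of 26 tested WNT pathway genes 0 were higher and 2 lower, and of 18 HOX and regional genes likewise 0 and 2. Of 33 tested voltage-gated channels and sigma receptors 3 were higher and 0 lower, and of 21 transmitter identity genes 1 was higher and 2 were lower. The 2 chaperones were 0 with no run term or in the 16 libraries alone, and 1 in 11 of the 16 fits without 1 fluoxetine library. The 2 WNT genes were 0 under the same 2 settings and without IC5 replicate 1, 4, 5 or 8 or IC20/100 replicate 6, and 1 in every other fit without 1 fluoxetine library but that without IC20/100 replicate 7. Both HOX and regional genes were lost in the 16 libraries alone, as was AEN. The lower transmitter genes were 1 without IC5 replicate 2, 4, 6 or 7 or IC20/100 replicate 5, 6, 7 or 8. Without methyl mercury IC20/100 replicate 8, 4 chaperones, 4 heat shock proteins and 2 transmitter genes were higher. The counts between the concentrations stand against 2.3% of all tested genes called higher and 1.46% called lower. For the p53 targets against control, 5.94% of all genes were lower at IC5 and 7.54% at IC20/100.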
